A study of Mus musculus with 6 samples.

Results

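The 8 genes described here, Tnfrsf11a, Nfatc1, Mitf, Acp5, Oscar, Dcstamp, Ocstamp and Traf6, belong to the program by which a macrophage precursor becomes an osteoclast. They were taken by name from a table of 34745 genes, in which each has 1 row. The cells were RAW 264.7, an established mouse macrophage line, and none of the labels names an osteoclast-inducing factor in either group. The control group received the solvent DMSO and the treated group received BPAP (bisphenol AP, an analogue of bisphenol A), with 3 RNA-seq libraries each. Dose and exposure time were not given in the sources used here, and all libraries come from 1 cell line. Nothing in the labels says that the libraries came from separate cultures, so the tests judge differences against a spread among libraries that may be purely technical.

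Osteoclasts are the bone-resorbing cells of the monocyte and macrophage lineage, and RAW 264.7 cells are widely used as their precursors because they form multinucleated osteoclasts when given the cytokine RANKL. RANKL binds the receptor RANK, the product of Tnfrsf11a, which recruits the adaptor and ubiquitin ligase TRAF6 and activates NF-kB and AP-1. These factors and calcium signals through calcineurin induce NFATc1, the master transcription factor of the osteoclast, which acts with MITF and PU.1 on genes of fusion and resorption such as Dcstamp, Ocstamp, Oscar and Acp5.

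Values are given as counts or as CPM, the count scaled to library size with TMM factors. Library totals ranged from 11084705 to 13806559 counts, and every pair of libraries differed by more than sampling noise (chi-square per degree of freedom of 6.64 or more). Of 12 macrophage markers, 11 were detected and tested and Mertk had 0 counts, and their summed level was 5750 to 6380 CPM in DMSO and 6400 to 6870 CPM in BPAP. Markers of T cells, B cells, epithelium and endothelium reached at most 7 counts in a library. Of 8 osteoblast and stromal markers, 4 had 0 counts, including Bglap and Alpl, and the highest, Runx2, reached 50 counts.

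The receptor and the upstream regulators were well expressed, while the genes that mark fusion and mature osteoclasts were low or almost absent, in both groups. Levels were compared between genes as CPM per kilobase of merged exon, each exonic base counted once. Tnfrsf11a stood highest at 16.8 ± 0.21 in DMSO libraries and 15.6 ± 0.82 in BPAP libraries (mean ± SD of 3 each), above 75.0% of the 11677 tested genes with an annotated length, whose median was 6.98. Nfatc1 followed at 13.0 ± 1.59 in DMSO and 10.9 ± 0.79 in BPAP. The libraries of these 2 genes did not overlap in either group.

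Mitf and Traf6 lay next, near the median of the tested genes. In DMSO, Mitf was at 9.01 ± 0.49 CPM per kilobase and Traf6 at 7.78 ± 0.23, with no overlap between their libraries. In BPAP, Mitf was at 6.29 ± 0.70 and Traf6 at 7.84 ± 1.54, and their libraries overlapped. The order of these 2 genes in DMSO rests on the gene length used: in the deposited FPKM, whose length for Mitf is 1.64 times the merged exon length, Mitf was below Traf6 in DMSO as in BPAP (5.56 against 7.10 in DMSO, 3.80 against 7.01 in BPAP). Acp5 was lower, at 2.76 ± 0.32 in DMSO and 3.59 ± 0.69 in BPAP, and averaged over all libraries Tnfrsf11a was 5.10 times as high per kilobase. The order of Acp5 and Mitf also rests on the gene length used. In the deposited FPKM, Acp5 was below Mitf in DMSO (3.51 against 5.56). In BPAP it was above Mitf (4.47 against 3.80), where their libraries overlapped.

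At the foot of the order were the fusion genes and Oscar. Dcstamp was at 1.45 ± 0.48 CPM per kilobase in DMSO and 1.13 ± 0.13 in BPAP, above 14.4% of the tested genes. Ocstamp was at 0.140 ± 0.041 in DMSO and 0.120 ± 0.070 in BPAP, and averaged over all libraries Tnfrsf11a was 124 times as high. Oscar had at most 1 count in a library. Ocstamp and Oscar did not reach the expression filter and were not tested, which left 6 of the 8 genes for the test across all genes.

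**Figure D1:**
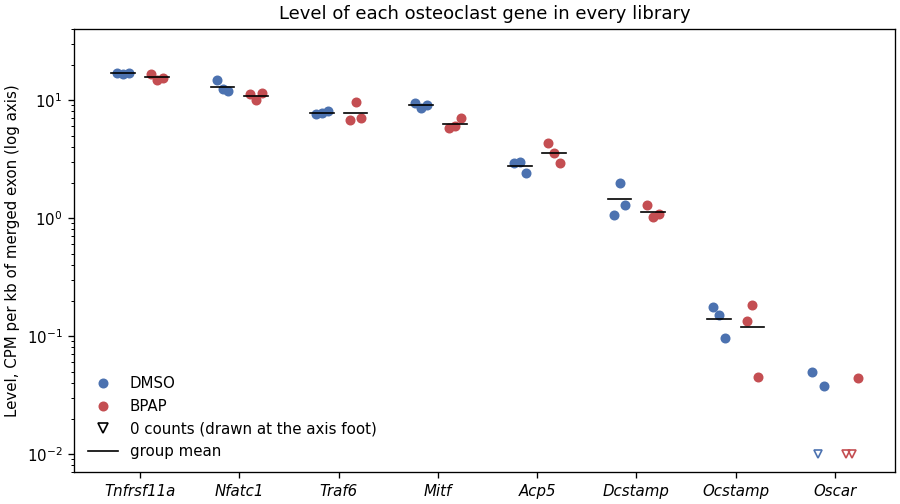
Level of each of the 8 genes in every library, in CPM per kilobase of merged exon on a log axis, with DMSO in blue, BPAP in red and black bars at group means where no library is at 0. Tnfrsf11a and Nfatc1 lie above 9 in every library, and libraries of Oscar with 0 counts are drawn as open triangles at the foot of the axis.

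Of the 6 genes tested, Mitf was lower in BPAP and the other 5 did not pass the threshold of 0.05 on edgeR's adjusted p, while 31.7% of all 11711 tested genes passed, 16.2% higher and 15.5% lower. The median log2 fold change of the 6 genes (BPAP minus DMSO) was -0.18, beside 0.02 for all tested genes. The CPM values of the groups did not overlap for 3 of the 6 genes, Tnfrsf11a, Nfatc1 and Mitf, all lower in BPAP. Over all tested genes the groups did not overlap for 49.0%, with 25.2% higher and 23.8% lower in BPAP, so the total share of the 6 genes is near that background.

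Fold changes in these libraries moved with transcript length. Across 11677 tested genes, which are not independent replicates, the Spearman correlation of log2 fold change with merged exon length was -0.40, and it was 0.05 in a second fit that took out, library by library, the trend with exon length and GC content. Of the 6 tested genes, Traf6, Nfatc1, Mitf and Tnfrsf11a are long, with 7883, 7469, 6196 and 5985 bases of merged exon, where the median tested gene has 4296. Acp5 and Dcstamp are shorter, with 2030 and 2664 bases. For this reason each of the 6 tested genes is given beside the median of the tested genes in the same length decile and beside its value with the trend removed. Mitf was also the 1 gene of the 6 called in that second fit, where 23.1% of all genes were called. The part of length in each result was not tested further.

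Mitf (chromosome 6, 97807052 to 98021349, plus strand, GRCm38) encodes the basic helix-loop-helix leucine zipper factor that cooperates with NFATc1 and PU.1 at osteoclast genes. Its CPM was 58.9, 52.8 and 55.8 in DMSO 1 to 3 and 35.9, 37.1 and 43.9 in BPAP 1 to 3. Every BPAP library was below every DMSO library.
Mitf was 1.43-fold lower in BPAP, with a log2 fold change of -0.52 (SE 0.11, 95% interval -0.76 to -0.28, adjusted p = 0.00621). In the fit that takes out length and GC the value was -0.38 (95% interval -0.59 to -0.17, adjusted p = 0.0199). The median of the 1167 tested genes with 6007 to 7359 exonic bases was -0.11, and 11.7% of them had a lower log2 fold change than Mitf. Mitf passed in all 17 alternative fits, with log2 fold changes from -0.61 to -0.38. In the absence of cell-level data, a lower level cannot be told apart from a smaller share of cells that express the gene, here and in the results that follow.

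The table sums over the alternative starts of Mitf, of which RefSeq holds 3 promoter windows, at chr6:97806808-97807107, chr6:97929567-97929866 and chr6:97991533-97991832. Which start lost transcripts cannot be read from gene counts.

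Nfatc1 was lower in each BPAP library than in any DMSO library but did not pass. Its CPM was 111, 92.1 and 88.8 in DMSO 1 to 3 and 84.0, 74.6 and 85.4 in BPAP 1 to 3, so that DMSO 1 stood above the others and DMSO 3 lay close to BPAP 3. The log2 fold change was -0.26 (SE 0.11, 95% interval -0.50 to -0.02, unadjusted p = 0.0379, adjusted p = 0.0926 in edgeR). The median of the 1168 genes with 7367 to 9628 exonic bases was -0.16, and with the length and GC trend removed Nfatc1 was at -0.17 (95% interval -0.41 to 0.07). Without DMSO 1 the value was also -0.17 (adjusted p = 0.225).

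Tnfrsf11a (chromosome 1, 105780718 to 105847981, plus strand), the gene of the receptor RANK, had means of 101 ± 1.28 CPM in DMSO and 93.4 ± 4.93 CPM in BPAP and did not pass. Its CPM was 101, 99.3 and 102 in DMSO 1 to 3 and 98.6, 88.7 and 92.9 in BPAP 1 to 3. The highest BPAP library lay just under the lowest DMSO library. The log2 fold change was -0.11 (SE 0.08, adjusted p = 0.357), and its 95% interval of -0.29 to 0.08 allows a level from 0.816 to 1.06 times that of DMSO. The genes of similar length had a median of -0.07, and with the length and GC trend removed Tnfrsf11a was at -0.05 (adjusted p = 0.687).

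Traf6 (chromosome 2, 101678429 to 101701669, plus strand), the gene of the adaptor that carries the RANK signal to NF-kB and the MAP kinases, had means of 61.3 ± 1.84 CPM in DMSO and 61.8 ± 12.2 CPM in BPAP. Its CPM was 59.6, 61.1 and 63.3 in DMSO 1 to 3 and 53.5, 75.8 and 56.1 in BPAP 1 to 3. BPAP 2 was above all DMSO libraries, and BPAP 1 and 3 were below all of them.
The log2 fold change was 0.01 (SE 0.13, 95% interval -0.28 to 0.30, adjusted p = 0.958), and without BPAP 2 it was -0.16 (adjusted p = 0.191). The interval allows a level from 0.825 to 1.23 times that of DMSO. Genes in its length decile, the same as for Nfatc1, had a median of -0.16, and with the length and GC trend removed Traf6 was at 0.17 (95% interval -0.16 to 0.50, adjusted p = 0.418).

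**Figure D2:**
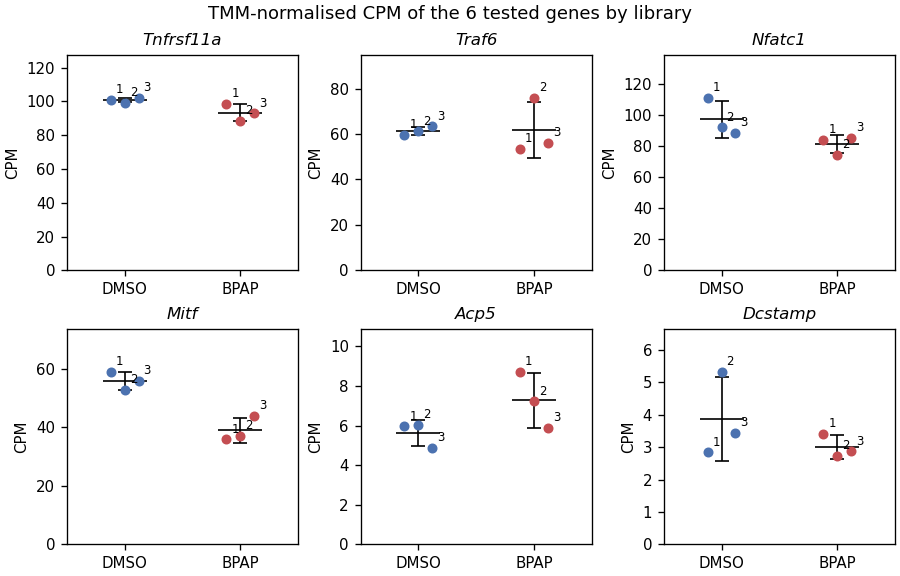
TMM-normalised CPM of the 6 tested genes in each library, with replicate numbers beside the points and black bars for the group mean and SD (n = 3). The groups do not overlap for Tnfrsf11a, Nfatc1 and Mitf, and BPAP 2 stands apart for Traf6 at 75.8 CPM.

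Acp5 (chromosome 9, 22126731 to 22135746, minus strand) encodes tartrate-resistant acid phosphatase, the enzyme stained to identify osteoclasts. It had 65, 77 and 69 counts in DMSO 1 to 3 and 107, 87 and 72 in BPAP 1 to 3, which is 5.96, 6.02 and 4.86 CPM against 8.70, 7.23 and 5.90 CPM. BPAP 1 and 2 were above all DMSO libraries, and BPAP 3 lay among them.
The log2 fold change was 0.38 (SE 0.19, 95% interval -0.05 to 0.80, adjusted p = 0.156). The tested genes with 1583 to 2324 exonic bases had a median of 0.25, and with the length and GC trend removed Acp5 was at 0.13 (adjusted p = 0.641). Exons of Acp5 share 137 bases with 6530413G14Rik on the opposite strand, and no source used here gives the strand setting of the counting, so reads of this stretch cannot be told apart.

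Dcstamp (chromosome 15, 39745932 to 39760934, plus strand) and Ocstamp (chromosome 2, 165393760 to 165400405, minus strand) encode multi-pass membrane proteins required for the fusion of osteoclast precursors. Dcstamp had 31, 68 and 49 counts in DMSO 1 to 3 and 42, 33 and 35 in BPAP 1 to 3. This is 2.84, 5.32 and 3.45 CPM against 3.42, 2.74 and 2.87 CPM. In CPM, DMSO 2 was the highest and BPAP 2 the lowest, and the groups overlapped.
The log2 fold change of Dcstamp was -0.37 (SE 0.26, 95% interval -0.94 to 0.21, adjusted p = 0.305). Without DMSO 2 it was -0.07 (adjusted p = 0.867). With the length and GC trend removed it was -0.53 (95% interval -1.11 to 0.04, adjusted p = 0.161), while genes of similar length had a median of 0.17 as counted.

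Ocstamp had 7, 7 and 5 counts in DMSO 1 to 3 and 6, 8 and 2 in BPAP 1 to 3, and the groups overlapped. Summed over the libraries this is 19 counts against 16, a BPAP to DMSO ratio of 0.874 with an exact 95% interval of 0.420 to 1.79, which covers counting error only. The 2-sided exact permutation p of its CPM was 0.7, where 0.1 is the smallest that 3 libraries against 3 allow. The log2 ratio of mean CPM (BPAP over DMSO) was -0.23, and without BPAP 3 it changed sign to 0.17.

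Oscar (chromosome 7, 3609813 to 3616157, minus strand) encodes an immunoglobulin-like receptor that signals through the Fc receptor gamma chain and costimulates RANK. It had 1, 0 and 1 counts in DMSO 1 to 3 and 0, 0 and 1 in BPAP 1 to 3. The detection limit of 3 counts equals 0.275 CPM at the lowest depth and 0.211 CPM at the highest, for counting error only, and both groups were below it, so no fold is given.

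**Figure D3:**
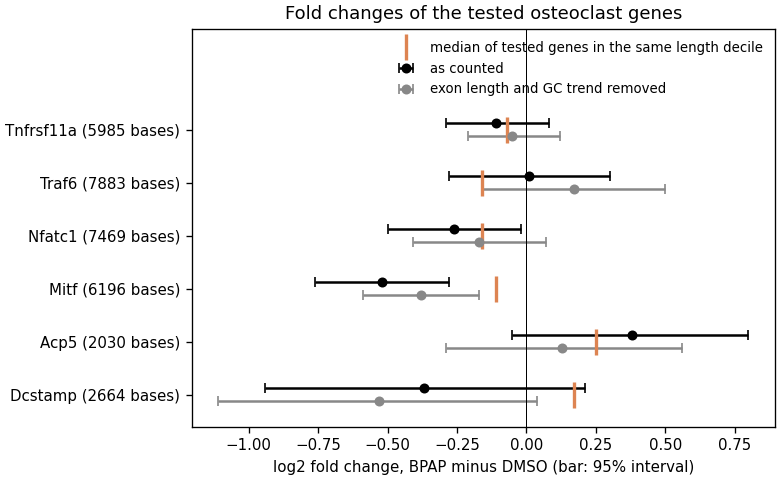
Log2 fold change (BPAP minus DMSO) of the 6 tested genes with 95% intervals, as counted in black and with each library's exon length and GC trend removed in grey. Orange marks show the median of tested genes in the same length decile, and of the 6 genes only the intervals of Mitf lie below 0 in both fits.

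Acp5 and Oscar are textbook targets of MITF, which binds boxes reading CATGTG or CACGTG, so their promoter windows are shown beside the fall of Mitf. RefSeq on GRCm38.p6 gave windows from 250 bases before to 50 after the start for 5 of the 8 genes, Tnfrsf11a, Traf6, Mitf, Oscar and Acp5. On either strand, CATGTG occurred in 14.2% of all 32851 windows of this length and CACGTG, which reads the same on both strands, in 7.15%. Among these genes a CATGTG box was found once in the Oscar window (chr7:3616108-3616407, minus strand) and once in 1 of the 3 Acp5 windows (chr9:22130549-22130848, minus strand), and no window of the 5 genes held CACGTG. The sequences follow 5′ to 3′ on the strand of the gene, with capitals for the box, which reads CACATG there because it lies on the other strand.
Oscar: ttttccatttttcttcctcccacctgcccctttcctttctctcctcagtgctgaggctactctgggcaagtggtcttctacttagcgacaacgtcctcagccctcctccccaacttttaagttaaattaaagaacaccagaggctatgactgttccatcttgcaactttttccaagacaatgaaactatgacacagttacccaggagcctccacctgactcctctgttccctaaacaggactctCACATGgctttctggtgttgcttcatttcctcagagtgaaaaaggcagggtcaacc
Acp5: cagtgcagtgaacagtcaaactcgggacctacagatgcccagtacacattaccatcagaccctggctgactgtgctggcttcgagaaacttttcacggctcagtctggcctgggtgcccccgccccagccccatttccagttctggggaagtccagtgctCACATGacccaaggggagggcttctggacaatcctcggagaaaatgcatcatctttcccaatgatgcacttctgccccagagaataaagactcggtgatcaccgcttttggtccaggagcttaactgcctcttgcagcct
The box begins 6 bases before the Oscar start and 90 bases before the Acp5 start. The AP-1 motif TGANTCA was in no window of the 5 genes and in 7.81% of all windows. The NFAT core GGAAA, searched on both strands, was in the Oscar window 4 times and in the 3 Acp5 windows 1, 1 and 2 times. It was also once in each of the Mitf windows chr6:97929567-97929866 and chr6:97991533-97991832. It was in no window of Tnfrsf11a or Traf6, and 61.3% of all windows held it. These matches describe letters only. The values of both genes are given above: Oscar had at most 1 count in a library, and Acp5 did not pass (log2 fold change 0.38, edgeR adjusted p = 0.156). A link of either gene to the fall of Mitf was not tested.

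Among themselves the 6 tested genes did not move as a block. Over the 6 libraries, which fall into 2 groups, the Pearson correlation of log2 CPM was 0.81 for Nfatc1 with Mitf, 0.72 for Nfatc1 with Tnfrsf11a and 0.68 for Mitf with Tnfrsf11a. It was -0.83 for Mitf with Acp5 and -0.07 for Mitf with Traf6. Among 9200 genes with a mean of at least 100 counts, the closest to Mitf were Fgf13 and 4933427D14Rik (both r = 0.997), to Nfatc1 Sdad1 (0.999) and Zfp414 (0.992), to Tnfrsf11a 2610203C22Rik (0.994) and Ptbp3 (0.993), and to Traf6 Tm9sf4 and Atrn (both 0.989). With 6 libraries such values are common: 270 genes exceeded 0.95 with Mitf, 118 with Nfatc1, 95 with Tnfrsf11a and 22 with Traf6.

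Other genes of osteoclast differentiation changed in both directions. Of 99 further genes listed by role, 85 were tested, 13 were higher and 15 lower in BPAP, which is 32.9% called beside 31.7% of all tested genes, and their median log2 fold change was -0.01. With the length and GC trend removed, 10 were higher and 6 lower, beside 11.9% and 11.2% of all 11665 genes in that fit. Without DMSO 2, 17 of the listed genes passed, 8 higher and 9 lower, and without BPAP 1, 18 passed, 8 of them higher. Without DMSO 3, 8 were higher.

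The ligand RANKL (Tnfsf11) and its decoy receptor osteoprotegerin (Tnfrsf11b), named here after their values were seen, had 0 counts in every library. Csf1, the gene of the macrophage growth factor M-CSF that osteoclast precursors need, rose 1.96-fold, with 4.27 ± 0.85 CPM in DMSO and 8.34 ± 1.82 CPM in BPAP (adjusted p = 0.00943), and its log2 fold change was 0.97 as counted and 0.98 with the length and GC trend removed. Its receptor gene Csf1r fell 1.33-fold, from 471 ± 24.0 to 354 ± 43.9 CPM, a call lost without DMSO 2 (adjusted p = 0.052) and without BPAP 1 (0.0502). Exons of Csf1r share 873 bases with Hmgxb3 on the opposite strand, so its counts are uncertain. Of 10 tested macrophage markers with 1 row each in the table, 6 were higher in BPAP (Adgre1, Lyz2, Cd14, Spi1, Fcgr1 and Tyrobp) and 2 lower (Csf1r and Ptprc). Of all tested genes 16.2% were higher and 15.5% lower. The call of Tyrobp held in 5 of 17 alternative fits and that of Spi1 in 8 of 17. With the length and GC trend removed, Tyrobp was at a log2 fold change of -0.15 (edgeR adjusted p = 0.138) and Spi1 at 0.15 (0.255). The part of such marker shifts in the fall of Csf1r was not tested.

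Of 8 tested receptors and costimulatory genes, 3 were higher and 1 lower, where 16.2% and 15.5% of all tested genes were. These genes are short, with a median of 2162.5 exonic bases beside 4296 for all tested genes. With the length and GC trend removed, 2 were higher and 1 lower, where 11.9% and 11.2% of all genes in that fit were. Tyrobp was then no longer called. Fcgr1, an activating Fc receptor gene, rose 2.35-fold from 18.6 ± 0.70 to 43.8 ± 6.31 CPM (adjusted p = 0.000421), and passed with the trend removed at a log2 fold change of 1.02. Trem2, whose product pairs with DAP12 in osteoclast costimulation, rose 1.23-fold, but this call was lost without any single library other than BPAP 2 (adjusted p between 0.0653 and 0.0989). On the deposited FPKM it narrowly missed as well with limma-trend (0.0508).

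Of 21 signal transducers, 1 was higher and 4 lower, where 16.2% and 15.5% of all tested genes were. With the length and GC trend removed, 1 was higher and 1 lower, where 11.9% and 11.2% of all genes in that fit were. Sqstm1, the gene of the p62 scaffold that binds TRAF6 and is mutated in Paget disease of bone, rose 2.01-fold from 718 ± 43.4 to 1440 ± 295 CPM (adjusted p = 0.00132), and it shares 580 exonic bases with Mrnip on the opposite strand. Plcg2, the phospholipase that releases calcium downstream of these receptors, fell 1.35-fold (adjusted p = 0.00713). After the length and GC trend was taken out, both passed, Sqstm1 at a log2 fold change of 0.86 and Plcg2 at -0.50. Map3k14, the NF-kB-inducing kinase gene, fell 1.48-fold, a call lost without DMSO 2 (adjusted p = 0.0606) and with the length and GC trend removed (0.051).

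In the calcium and calcineurin arm, which leads to NFATc1, 3 of 8 tested genes were lower and 0 higher, and these genes are long, with a median of 9500 exonic bases. Of all tested genes 15.5% were lower, and of those with 7367 to 9628 exonic bases, the length decile that holds this median, 28.0% were lower and 6.08% higher. Only Itpr3 and Ppp3cb lie in that decile. Itpr1, Itpr2, Stim1 and Ppp3ca are longer, with 18319, 14802, 10371 and 9981 bases, and Ppp3r1 and Orai1 are shorter. The shares of that decile are thus not matched to the length of each gene. At an unadjusted p of 0.05 in edgeR's test 4 were lower and 0 higher, and DESeq2 and limma-voom also called 3 lower and 0 higher after adjustment. The inositol trisphosphate receptor genes Itpr3 and Itpr1 fell 1.38-fold and 1.47-fold, and the calcineurin catalytic subunit gene Ppp3ca fell 1.24-fold. With the length and GC trend removed, Itpr3 passed (log2 fold change -0.30, adjusted p = 0.0161), while Itpr1 (-0.19, adjusted p = 0.219) and Ppp3ca (-0.10, adjusted p = 0.41) did not. The call of Ppp3ca was also lost without DMSO 1, DMSO 3, BPAP 1 or BPAP 2.

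Among 17 tested transcription factors, 6 were higher and 2 lower, where 16.2% and 15.5% of all tested genes were. With the length and GC trend removed, 4 were higher and 0 lower, where 11.9% and 11.2% of all genes in that fit were. The calls of Junb and Spi1 as higher held in 4 and 8 of 17 alternative fits. The AP-1 genes Jund and Fos rose 2.43-fold and 2.07-fold, Jund from 143 ± 9.76 to 346 ± 26.1 CPM (adjusted p = 0.000106) and Fos from 17.1 ± 1.76 to 35.5 ± 8.10 CPM (adjusted p = 0.00219). In the fit that takes out length and GC both passed, Jund at a log2 fold change of 0.96 and Fos at 0.81. Exons of Jund share 877 of their 1668 bases with Gm11175 on the opposite strand, which had 38 counts over all 6 libraries. Reads of this stretch cannot be told apart without the strand setting. Fos is required for osteoclast formation and lies upstream of Nfatc1, whose own level is given above. Creb1, a calcium-responsive factor gene with 13742 exonic bases, fell 1.58-fold (adjusted p = 0.00227), and with the length and GC trend removed it did not pass (-0.20, adjusted p = 0.122). Tfe3 and Tfeb, the relatives of Mitf, named after their values were seen, had log2 fold changes of 0.08 (adjusted p = 0.618) and -0.15 (adjusted p = 0.367). Tfe3 passed as higher with the trend of the FPKM length removed (0.39, adjusted p = 0.0318), and its sign changed in 2 of 17 alternative fits. Whether Mitf differs from Tfe3 and Tfeb was not tested.

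Of 12 tested repressors and inhibitors, 1 was higher and 4 lower, where 16.2% and 15.5% of all tested genes were. With the length and GC trend removed, 1 was higher and 2 lower, but the higher gene was not the same in both fits. As counted it was Id2, which rose 1.87-fold (edgeR adjusted p = 0.0361). Only 7 of the 17 alternative fits kept this call, and removal of the trend lost it (0.0796). The higher gene was then Rbpj (0.36 in log2, adjusted p = 0.0151), whose value as counted was 0.03 (0.791). Both genes were named after their values were seen. Nfkbia, the gene of the NF-kB inhibitor IkB alpha, fell 1.39-fold from 139 ± 8.78 to 99.7 ± 3.93 CPM (adjusted p = 0.00371), a log2 fold change of -0.47 that was -0.80 after the trend was taken out. Tnfaip3 and Cyld, genes of deubiquitinases that restrain TRAF6 signalling, fell 1.67-fold and 1.35-fold. The call of Tnfaip3 was lost without BPAP 2 (adjusted p = 0.0694) and with the trend of the FPKM length removed (0.0604), and that of Cyld without DMSO 3 (0.0554) and with the length and GC trend removed (0.353).

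In the fusion list, 1 of 9 tested genes was higher and 1 lower, where 16.2% and 15.5% of all tested genes were. Adam8, the gene of a membrane metalloprotease linked to osteoclast fusion, fell 1.88-fold from 150 ± 7.65 to 80.0 ± 12.1 CPM (adjusted p = 0.00076), and passed with the length and GC trend removed (log2 fold change -0.94, adjusted p = 0.00132). Cd81, a tetraspanin gene, rose 1.28-fold, with an adjusted p of 0.115 once that trend was taken out. Integrin beta 3 (Itgb3), a marker of mature osteoclasts named after its values were seen, had 2 counts over all 6 libraries.

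Of 9 tested resorption genes, 0 passed in edgeR's test, where 31.7% of all tested genes passed, and 1 was past an unadjusted p of 0.05. That gene, Mmp9, the matrix metalloprotease of osteoclasts, was at 33.1 ± 4.11 CPM in DMSO and 23.9 ± 5.80 in BPAP (log2 fold change -0.47, SE 0.17, adjusted p = 0.0618). DESeq2 called that gene alone (adjusted p = 0.0422) and limma-voom called 0. Mmp9 passed in 6 of the 17 alternative fits, which besides DESeq2 were those without the filter on low counts (adjusted p = 0.0412), with limma-trend on log2(FPKM + 1) (0.0494), without BPAP 1 (0.015), with the trend of the FPKM length removed (0.0463) and with the replicate block beside removal of the length and GC trend (0.0445). Its adjusted p reached 0.185 in the others. Snx10, a sorting nexin gene needed for bone resorption and named after its values were seen, was at 45.6 ± 7.67 CPM in DMSO and 51.7 ± 3.89 in BPAP (log2 fold change 0.19, adjusted p = 0.293), and passed as higher with the length and GC trend removed (0.41, adjusted p = 0.0309). Ctsk, the osteoclast collagenase gene named after its values were seen, was at 1.34 ± 0.29 and 1.64 ± 0.18 CPM (adjusted p = 0.468), and the calcitonin receptor gene Calcr had 0 counts in every library. Not all genes of these lists were low. Tcirg1, Car2 and Clcn7, and Cd9 of the fusion list, were named after their values were seen. Averaged over all libraries they were at 109, 41.8, 19.2 and 133 CPM per kilobase, where the median tested gene was at 6.98.

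**Figure D4:**
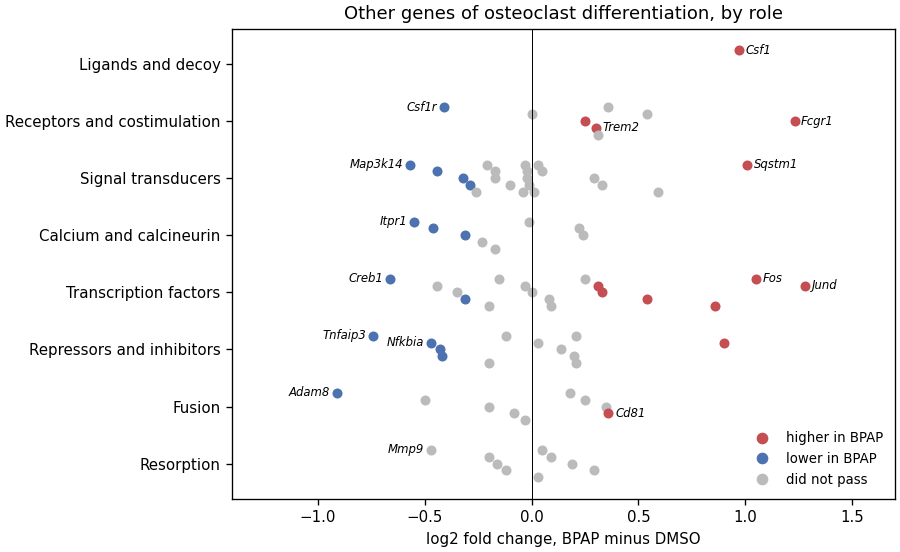
Log2 fold change (BPAP minus DMSO) of the 85 tested pathway genes outside the 8, by role, in red where higher, blue where lower and grey where the adjusted p of 0.05 was not passed. Points are spread vertically for legibility, and the resorption row holds grey points only.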

How the data were processed

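RNA-seq libraries of RAW 264.7 cells were made from total RNA, 3 per group. The submitters' processing notes name build GRCm38 and the tools StringTie (1.3.3b), HISAT2 (2.0.4) and edgeR. The annotation release and the treatment of multi-mapped reads were not given in the sources used here. The authors deposited raw counts per gene and FPKM values. The deposited FPKM values use a gene length that was the same in all libraries and, for Mitf, 1.64 times the merged exon length of GENCODE M21, so levels were computed from counts.

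Counts passed edgeR's default filter (11711 genes), were TMM-scaled and tested with edgeR 4.0.16 (quasi-likelihood, robust, treatment only, R 4.3.3). The p-values were adjusted by Benjamini and Hochberg's method across all genes tested. SEs derive from the fold change and F statistic. For the trend fit, a lowess curve (span 0.3) on exon length, then on the GC content of the longest transcript, entered as offsets. Alternatives were DESeq2 1.42.0 and its size factors, upper quartile scaling, no filter, limma 3.58.1 (voom, and limma-trend on log2(FPKM + 1) or log2(FPKM + 0.1) where the mean FPKM was at least 1), a length trend from the FPKM length, a replicate block and each library left out. The procedures were tested on simulated data, with the same spread set for all genes. There the main fit recovered 58.2% of genes changed 1.5-fold and 90.9% of those changed 2-fold. A gene that did not pass may therefore still have changed.

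The 8 genes and the role lists were chosen with earlier results of these data known. Of each role, up to 3 genes that passed with the smallest p are named, or 1 where none passed. The 2 genes most like each of the 8 by Pearson correlation are named where the mean was at least 100 counts.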

Additional observations from a re-analysis of the deposited data

How the results depend on the processing

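The number of the 8 genes called was 1, Mitf, in all 17 alternative fits. Tnfrsf11a, Nfatc1, Acp5 and Dcstamp kept their sign and did not pass in any of them. The log2 fold change of Traf6 changed sign with limma-voom (-0.01), limma-trend on log2(FPKM + 1) (-0.03) and log2(FPKM + 0.1) (-0.04) and the replicate block (-0.01), and ranged from -0.16 to 0.11 with 1 library left out. The cause was not tested. With 1 library left out, 17 to 24 of the other pathway genes passed, 8 to 12 higher and 9 to 12 lower, and of all genes 1244 to 1654 were higher. After removal of the length and GC trend, 16 pathway genes passed and 6 were lower, with the replicate block added to it 8 were lower, and with limma-trend on either FPKM scale 8 were higher, where fewer genes could be tested. In deposited FPKM, Tnfrsf11a was at 16.2 in DMSO and 14.8 in BPAP, Mitf at 5.56 and 3.80, Acp5 at 3.51 and 4.47, Dcstamp at 1.97 and 1.49, and Traf6 at 7.10 in DMSO. The order of the 8 genes averaged over all libraries was the same. Within a group it was not: Mitf was below Traf6 in DMSO, and Acp5 was above Mitf in BPAP. These levels differ through the gene length and library scaling used.

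Same-numbered libraries deviated together with correlations of 0.101, 0.054 and 0.01. DMSO 1 and DMSO 2 each correlated best with the BPAP library of the same number, and DMSO 3 with BPAP 2 (0.045). No label states a pairing and these values are small, so the numbers were not taken as pairs in the main fit. Whether the libraries were paired is not settled by them. The replicate block gave 4236 calls against 3715, with Mitf at -0.52 (adjusted p = 0.00527). Depth limits Ocstamp and Oscar, for which no test was made with the filter.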
